A study of Mus musculus with 5 samples.

Results

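The 28 genes described here encode most of the enzymes of cholesterol synthesis and of the core of fatty acid synthesis, with their transcription factors and 2 proteins of sterol sensing and transport. They were taken by symbol from a given list and all 28 were found among the 24860 genes of the count tables. The sterol branch holds 18 of them, 7 for the mevalonate steps and 11 for squalene and the sterols, a further 4 are regulators and transport proteins, and 6 form the fatty acid branch.

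The study asked how progesterone changes the immune surroundings of mammary tumours. Cells of the mouse mammary tumour line SSM2, used as a hormone receptor-positive model, were injected into a mammary gland of mice aged 10 to 12 weeks, which also received a pellet of 60 mg progesterone or placebo with a 60-day release under the skin of the neck. The strain of the mice is not given in the labels. Tumours were taken 28 to 62 days later and dissociated, and 5 droplet libraries were made from the cells (10x Genomics 3′ chemistry, with a unique molecular identifier, or UMI, counted for each captured RNA molecule): Placebo 1 and Progesterone 1 in batch 1, and Placebo 2, Progesterone 2 and Progesterone 3 in batch 2. The groups therefore hold 2 placebo and 3 progesterone libraries of 1 cell line. The labels do not tie a library to 1 animal or to a pool, and the deposited names of Progesterone 2 and 3 carry the same identifier with an added L and R, so these 2 may be tumours of 1 mouse. The p-values therefore describe variation among libraries and not, for certain, among mice.

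Depth and cell content differed more between the batches than between the treatments. Placebo 1 held 43194597 UMIs and Progesterone 1 23409215, against 182845008 to 204786073 in the libraries of batch 2. Cells were grouped by clustering and named from marker genes, with the genes of these pathways left out of the genes used to cluster. Epithelial-like cells, which carry the keratins and Epcam, were nearly all in batch 2, with 2825 in Placebo 2, 3100 in Progesterone 2 and 3283 in Progesterone 3. Progesterone 1 held 55 and Placebo 1 only 2, too few to use, so the epithelial-like cells of the placebo group come from 1 library, Placebo 2. That library also stands apart within the class. Of its 2825 epithelial-like cells, 2322 lie in a cluster led by Dcpp1, Gcg and Krt17 that holds 9 cells of Progesterone 2 and 5 of Progesterone 3. In that class a difference of treatment and a difference of this library cannot be told apart. T cell-like cells made up most of Placebo 1 (4167 of 4744 cells kept). Any pair of libraries shared 2 to 12 cell barcodes.

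Cholesterol is built from acetyl-CoA by way of mevalonate, farnesyl diphosphate and squalene, and the last steps turn lanosterol into cholesterol in the endoplasmic reticulum. The pathway is under feedback: when membranes are short of sterol, the transcription factor SREBP-2, the product of Srebf2, is released and switches on nearly every gene of the branch, while its relative SREBP-1, from Srebf1, acts more on fatty acid synthesis. INSIG1 holds the precursors in the endoplasmic reticulum when sterol is plentiful. In the mammary gland these pathways are best known from milk fat production, and dividing tumour cells also use them to build membrane.

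The sequences just before the start of these genes show which short motifs the members have in common. Promoter sequences from RefSeq (build GRCm38.p6) were matched for 22 of the 28 members (all but Fdps, Fdft1, Sqle, Stard4, Scd1 and Scd2), with 27 start sites, and the 250 bases before each start were searched on both strands. SREBPs are known to act together with NF-Y, which binds CCAAT, and with Sp1, which binds GGGCGG. In the members, CCAAT was present before 19 of the 27 starts (70.4%), against 33.8% of all 32851 promoters in the table and 34.8% of the 15760 that belong to genes tested in the epithelial-like cells. GGGCGG was present before 20 of the 27 (74.1%), against 32.7% of all promoters and 52.6% of those of tested genes. TCACNCCAC, the core of a sterol regulatory element, was found only before Hmgcs1, in 3.7% of the members' promoters and 1.05% of all promoters. CACGTG, an E-box that SREBP-1 can also bind, stood before 4 starts (14.8%, against 6.02% of all promoters), those of Hsd17b7, Sc5d, Dhcr7 and Insig1. A match is a run of letters and not a measured binding site.

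The promoters of 6 members are shown because they carry these motifs and span the range of the changes described below. Each line gives the 150 bases before the start, 5′ to 3′ on the strand of the gene, with every match to the 4 motifs in capitals (CCAAT reads ATTGG, and the Sp1 motif CCGCCC, where it lies on the other strand). Hmgcs1 is at chr13:119690201-119690350 on the plus strand, Idi1 at chr13:8885456-8885605 on the plus strand and Cyp51 at chr5:4104698-4104847 on the minus strand. Insig1 is at chr5:28071262-28071411 on the plus strand, Fasn at chr11:120824548-120824697 on the minus strand and Tm7sf2 at chr19:6067851-6068000 on the minus strand.
Hmgcs1: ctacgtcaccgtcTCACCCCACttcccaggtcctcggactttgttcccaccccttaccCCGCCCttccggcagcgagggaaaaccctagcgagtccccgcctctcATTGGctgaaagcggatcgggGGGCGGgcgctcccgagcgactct
Idi1: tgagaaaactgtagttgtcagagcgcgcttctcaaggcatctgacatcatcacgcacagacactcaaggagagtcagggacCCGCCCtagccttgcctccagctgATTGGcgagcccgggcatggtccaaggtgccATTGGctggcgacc
Cyp51: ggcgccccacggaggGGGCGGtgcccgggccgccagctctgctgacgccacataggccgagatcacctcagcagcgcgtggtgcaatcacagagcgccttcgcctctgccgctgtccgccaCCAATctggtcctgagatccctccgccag
Insig1: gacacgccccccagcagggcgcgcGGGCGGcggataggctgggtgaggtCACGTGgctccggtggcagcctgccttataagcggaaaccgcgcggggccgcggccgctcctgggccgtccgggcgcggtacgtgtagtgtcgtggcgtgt
Fasn: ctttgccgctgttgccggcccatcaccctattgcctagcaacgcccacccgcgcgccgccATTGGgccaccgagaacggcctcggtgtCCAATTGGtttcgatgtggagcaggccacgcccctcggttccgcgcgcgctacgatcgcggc
Tm7sf2: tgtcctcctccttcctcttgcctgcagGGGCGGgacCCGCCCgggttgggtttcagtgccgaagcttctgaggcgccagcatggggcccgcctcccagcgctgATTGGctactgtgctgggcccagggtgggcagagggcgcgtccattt
The Hmgcs1 stretch holds the sterol regulatory core, 1 CCAAT box and 2 Sp1 motifs, Idi1 holds 2 CCAAT boxes and Fasn 3, of which 2 overlap. The promoter of Tm7sf2, the sterol-branch gene that did not fall in the tumour cells, also carries CCAAT and the Sp1 motif. That of Acaca, the other matched member that did not pass the test there, holds none of the 4 motifs in the 250 bases searched. The promoter of Elovl6, which was called lower (log2 ratio -1.15), holds none of them either.

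In the epithelial-like tumour cells the sterol branch was lower in all progesterone libraries than in Placebo 2. Its 18 genes summed to 1197 CPM in Placebo 2 and to 691, 666 and 689 CPM in Progesterone 1, 2 and 3, where CPM is the number of UMIs per 1000000 UMIs of the class in that library. The sums of the 3 progesterone libraries, which differ widely in cell number, lay close together, and Placebo 2 stood 1.73 to 1.80 times above them. Within single clusters, described below, Progesterone 1 lay apart from Progesterone 2 and 3, above them in some clusters and below them in others. In edgeR's quasi-likelihood test with the batch in the model, 25 of the 28 members passed an adjusted p of 0.05 and all 25 were lower with progesterone. The background in this comparison is high: 25.8% of the 16285 genes tested were called lower as well. The members' median log2 ratio was -0.77, and the median over all genes tested was 0.02. Log2 ratios are those of the fit, after TMM scaling of the libraries, and can differ from the ratio of the CPM values. With the batch in the model the ratio is set by Placebo 2 against Progesterone 2 and 3, with 1 residual degree of freedom. Progesterone 1, alone in its batch, is fitted exactly, so that degree of freedom is the difference between Progesterone 2 and Progesterone 3. These 2 may be tumours of 1 mouse. The lone placebo library is assumed to vary like them. Each gene's spread is largely borrowed from the other genes, where it comes from the same 2 libraries. The p-values below rest on that spread. Leaving the batch out, so that the 55 cells of Progesterone 1 count as well, left 14 members called, all lower, in a fit that called 12% of all genes. The 11 that lost their call were Hmgcs1, Pmvk, Fdft1, Nsdhl, Hsd17b7, Elovl6, Acly and the 4 regulators and transport proteins. Without Progesterone 2 or Progesterone 3 as well, 6 and 5 members were called, all lower, where 1280 of 15978 and 1081 of 15949 genes were called. Adding the shallow clusters that stayed unnamed but scored highest for epithelial markers, which brings Placebo 1 into the fit, gave 8, all lower, where 3115 of 15779 genes were called. These were Acat2, Mvd, Lss, Nsdhl, Dhcr7, Insig1, Elovl6 and Scd1, so Cyp51, Msmo1, Sqle, Fdps and Fasn lost their call there. Over all 14 settings tried, 0 members were called in every one.

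**Figure D1:**
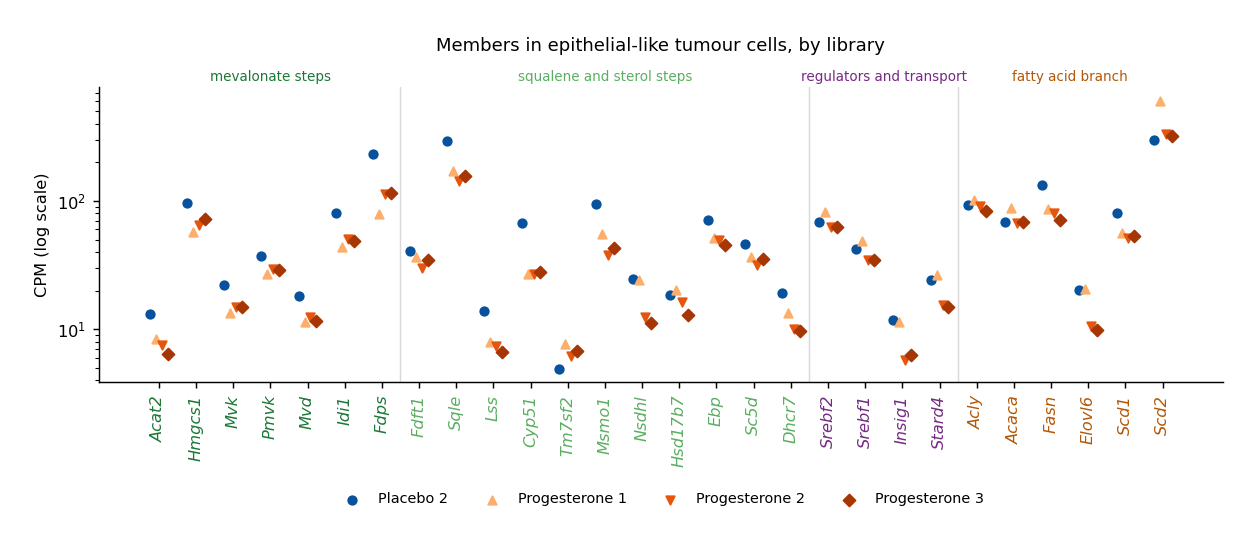
Level of each of the 28 genes in epithelial-like tumour cells, in CPM on a log axis, with 1 point per library and genes ordered by role. Placebo 2 lies above all 3 progesterone libraries for 19 of the 28 genes, among them all 7 of the mevalonate steps, and Tm7sf2 and Scd2 are the 2 genes at which it is the lowest library of batch 2. The share of all genes at which Placebo 2 lies above all 3 was not counted.

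All 7 genes of the mevalonate steps fell. Hmgcs1, the synthase that makes HMG-CoA, stood at 97.0 CPM in Placebo 2 and at 57.7, 65.2 and 72.4 CPM in Progesterone 1, 2 and 3 (log2 ratio -0.65, SE 0.0917, adjusted p = 1.23e-06). Fdps, which joins the isoprenoid units into farnesyl diphosphate, had 233 in Placebo 2 and 78.5, 113 and 116 in Progesterone 1, 2 and 3 (log2 ratio -1.18, SE 0.0955, adjusted p = 6.54e-11). Idi1, the isomerase of the step before, was at 80.0 in Placebo 2 and 43.8, 51.0 and 48.5 in the progesterone libraries (log2 ratio -0.84, SE 0.0898, adjusted p = 1.15e-08). For these 3 genes Placebo 2, the only placebo library used, lay above every progesterone library. The share of all genes with that order was not counted. Acat2, the thiolase that makes acetoacetyl-CoA in the cytosol, was the other member of the group whose log2 ratio passed -1 (-1.06, SE 0.127). Mvk, Pmvk and Mvd, the 2 kinases and the decarboxylase that turn mevalonate into the isoprenoid unit, fell by 0.73, 0.52 and 0.76 on the log2 scale.

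Squalene and sterol steps held the largest changes, with 10 of 11 genes lower and a median log2 ratio of -1.10. Cyp51, the demethylase of lanosterol, was at 67.9 CPM in Placebo 2 and at 27.0, 26.8 and 27.97 in Progesterone 1, 2 and 3 (log2 ratio -1.47, SE 0.0882, adjusted p = 1.81e-13). Msmo1, the oxidase of the next methyl groups, was at 94.8 in Placebo 2 against 55.5, 38.2 and 43.2 (log2 ratio -1.38, SE 0.0908, adjusted p = 1.41e-12). Sqle, which adds oxygen to squalene and is a known control point of the pathway, was at 294 against 170, 143 and 156 (log2 ratio -1.14, SE 0.102, adjusted p = 5.32e-10). Placebo 2 again lay above every progesterone library for these 3 genes. Lss, which closes the rings, was at 14.0 in Placebo 2 and between 6.6 and 8.0 in the progesterone libraries (log2 ratio -1.15). Dhcr7, the last reductase, was at 19.1 against 13.5, 10.1 and 9.8 (log2 ratio -1.10).

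Nsdhl and Hsd17b7, which act with Msmo1 in removing those methyl groups, showed where Progesterone 1 departs from the other progesterone libraries. Nsdhl had 24.6 CPM in Placebo 2 and 24.1 in Progesterone 1, but 12.5 and 11.2 in Progesterone 2 and 3. Hsd17b7 had 18.7 in Placebo 2, 20.1 in Progesterone 1 and 16.2 and 13.05 in Progesterone 2 and 3. Both were called lower with the batch in the model (log2 ratios -1.20 and -0.51) and neither was called without it. Ebp, the sterol isomerase, and Sc5d, the desaturase that follows it, fell by 0.74 and 0.63 on the log2 scale, and Fdft1, squalene synthase, by 0.49. Tm7sf2, a sterol reductase for which Lbr can stand in, went the other way without passing the test: 4.9 in Placebo 2 and 7.7, 6.3 and 6.8 in the progesterone libraries (log2 ratio 0.24, SE 0.143, adjusted p = 0.161).

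**Figure D2:**
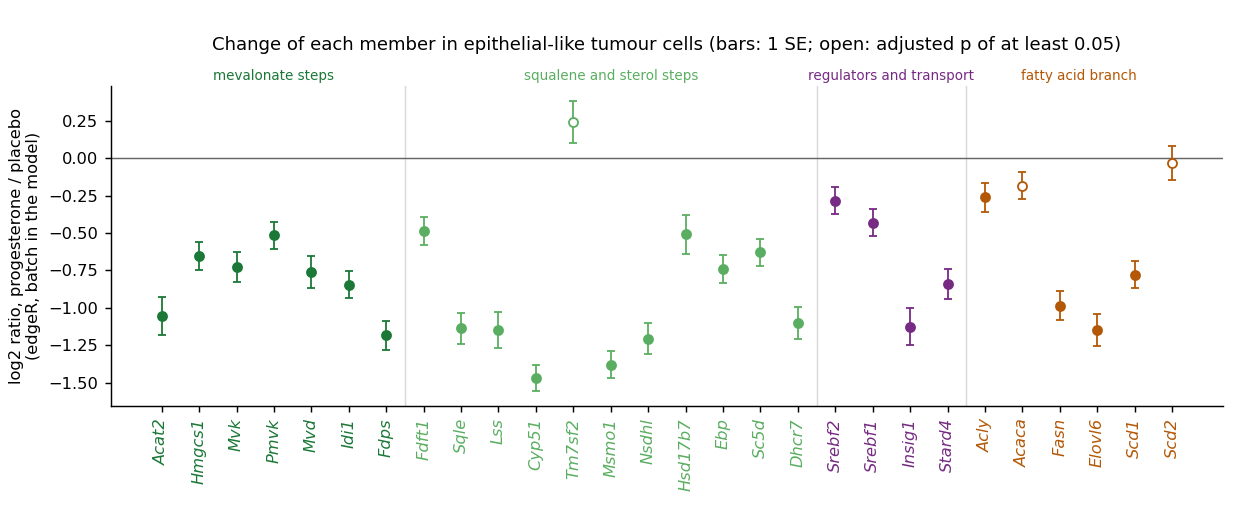
Log2 ratio of progesterone to placebo in epithelial-like tumour cells for each of the 28 genes, from edgeR with the batch in the model, with bars of 1 SE. Filled points passed an adjusted p of 0.05, and the ratios run from -1.47 for Cyp51 to 0.24 for Tm7sf2.

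Of the regulators, the gene of the main transcription factor moved least. Srebf2 was at 68.1 CPM in Placebo 2 and at 81.4, 62.2 and 62.5 CPM in Progesterone 1, 2 and 3 (log2 ratio -0.28, SE 0.0901, adjusted p = 0.00999). Srebf1 was at 42.1 against 48.6 in Progesterone 1 and about the same lower level, 34.997 and 34.7, in Progesterone 2 and 3 (log2 ratio -0.43, SE 0.0905, adjusted p = 0.000261). In both, Progesterone 1 was above Placebo 2, so Placebo 2 lay within the range of the progesterone libraries. None of the 4 genes of this group was called without the batch. Insig1, itself a target of the SREBPs, fell further, from 11.8 in Placebo 2 to 5.8 and 6.3 in Progesterone 2 and 3 (log2 ratio -1.13, SE 0.124, adjusted p = 1.96e-08), while Progesterone 1 stood at 11.3. Stard4, which carries cholesterol between membranes, was at 24.3 in Placebo 2 and 15.4 and 14.9 in Progesterone 2 and 3 (log2 ratio -0.84), with 26.3 in Progesterone 1. SREBP activity is set by cleavage of the protein, which RNA counts do not measure.

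The fatty acid branch was divided. Fasn, which builds palmitate, was at 134 CPM in Placebo 2 and 86.9, 80.2 and 71.1 in Progesterone 1, 2 and 3 (log2 ratio -0.98, SE 0.0967, adjusted p = 9.57e-09). Scd1, a desaturase, was at 80.6 against 56.6, 51.8 and 53.2 (log2 ratio -0.78, SE 0.0886, adjusted p = 3.95e-08). For these 2 genes Placebo 2 lay above every progesterone library. Elovl6, the elongase that acts on palmitate, fell within batch 2 from 20.3 to 10.6 and 9.8 (log2 ratio -1.15, SE 0.107, adjusted p = 9.93e-10), but Progesterone 1 stood at 20.5. Acly, which supplies cytosolic acetyl-CoA to both branches, had 93.6 in Placebo 2 and 102, 90.9 and 83.1 in the progesterone libraries (log2 ratio -0.26, SE 0.0956, adjusted p = 0.024).

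Acaca and Scd2 did not pass the test. Acaca, the carboxylase that makes malonyl-CoA, had 69.1 CPM in Placebo 2 and 88.7, 67.2 and 68.5 in Progesterone 1, 2 and 3 (log2 ratio -0.18, adjusted p = 0.0916). Scd2, the relative of Scd1, was at 298 in Placebo 2 and at 604, 332 and 318 in Progesterone 1, 2 and 3 (log2 ratio -0.03, SE 0.114, adjusted p = 0.843). Scd2 made the sum of the branch run apart from that of the sterol branch: the 6 genes summed to 696 in Placebo 2 and to 958, 633 and 604 in Progesterone 1, 2 and 3, with the placebo library inside the range of the progesterone libraries. Within clusters the high Scd2 of Progesterone 1 held in most but not all places. It was at 680, 586, 670 and 457 in its 11, 6, 23 and 5 cells of the clusters led by Defb1, Ntm, P4ha2 and Ube2c, against 359, 305, 422 and 263 in Progesterone 2 and 336, 295, 387 and 267 in Progesterone 3. In its 9 cells of the cluster led by Nrxn3 and Zbtb16 it was at 202, below the 391 and 314 of Progesterone 2 and 3.

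Set side by side, 17 of 18 sterol-branch genes and 4 of 6 fatty acid genes were lower, with median log2 ratios of -0.80 and -0.52. That gap of -0.28 depends on single genes, since the median of the 6 fatty acid genes lies in the wide space between Scd1 (-0.78) and Acly (-0.26). Without Acly the difference of the medians is -0.02, and leaving out Acaca or Scd2 instead gives the same median. Leaving out Fasn, Elovl6 or Scd1 instead moves the fatty acid median to the -0.26 of Acly, which widens the gap. The log2 ratio of the summed sterol branch to the summed fatty acid branch was 0.78 in Placebo 2 and -0.47, 0.07 and 0.19 in Progesterone 1, 2 and 3, so every progesterone library lay below the placebo library on this measure. No test was made over the lists, since the members were proposed with results of these data known.

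Within the tumour cells the sterol branch differed between libraries also inside a cluster. The 2 clusters that hold most of Placebo 2, the one led by Dcpp1, Gcg and Krt17 and one led by histone and other S-phase genes, stood at 1199 and 1208 CPM. In the clusters that hold most of Progesterone 2 and 3 the sums ran from 491 to 770. A few cells of Placebo 2 fell in those same clusters. In the cluster led by Defb1 and Calca, its 26 cells had 1175 (95% Poisson interval 1124 to 1227, counting error only), against 728 in the 850 cells of Progesterone 2 and 770 in the 789 cells of Progesterone 3. In the cluster led by Ntm and Muc19, its 33 cells had 1134 (1089 to 1180), against 670 and 702. Placebo 2 was the highest library of batch 2 for 16 of 18 sterol-branch genes in the Defb1 cluster and 17 of 18 in the Ntm cluster. The share of all genes for which it was the highest there was not counted. Progesterone 1 lay between, at 848 in its 11 cells (791 to 909) of the Defb1 cluster and at 951 in its 6 cells (852 to 1059) of the Ntm cluster. In the cluster led by Nrxn3 and Zbtb16, 13 cells of Placebo 2 had 983 (792 to 1207), against 544 and 570 in Progesterone 2 and 3 and 233 in the 9 cells of Progesterone 1. The few cells of Progesterone 2 and 3 in the Dcpp1 cluster, 9 and 5, had 755 (642 to 882) and 882 (760 to 1019). In the cluster led by P4ha2, Selenbp1 and Ndrg1, 8 cells of Placebo 2 had 510, between the 491 of Progesterone 2 and the 545 of Progesterone 3, and 23 cells of Progesterone 1 had 593. In the cluster led by Ube2c and Cenpf, genes of dividing cells, 2 cells of Placebo 2 had 604 (383 to 906), below the 708 and 721 of Progesterone 2 and 3. The 5 cells of Progesterone 1 there had 534. In these last 2 clusters, with 8 and 2 of its cells, Placebo 2 did not stand above both other libraries of its batch. Fasn was at 34.5 in the P4ha2 cluster in both Progesterone 2 and 3, against 72.1 to 98.6 in the clusters led by Defb1 or Ntm in the same libraries.

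**Figure D3:**
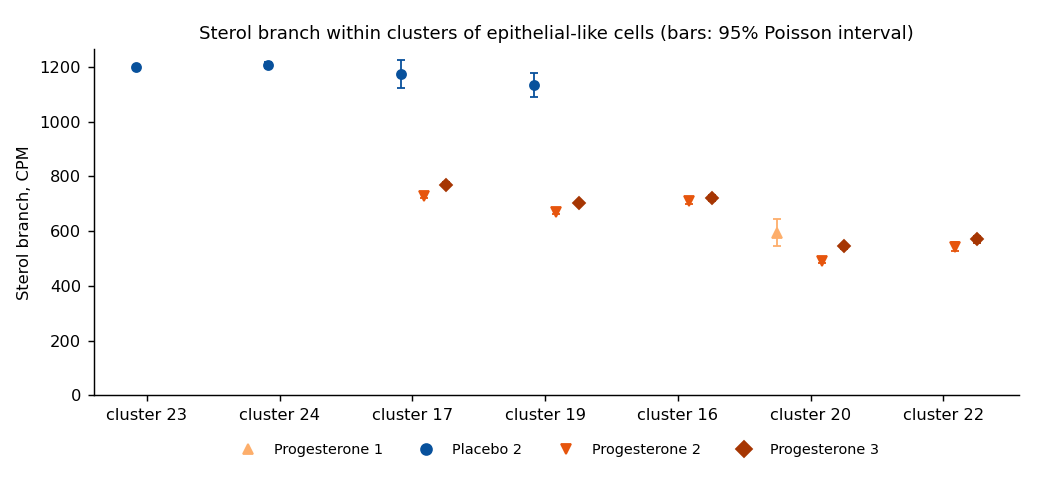
Summed sterol branch in CPM within each cluster of epithelial-like cells, for libraries with at least 20 cells there, with 95% Poisson intervals for counting error. The 26 and 33 cells of Placebo 2 in clusters 17 (led by Defb1 and Calca) and 19 (led by Ntm and Muc19) lie at 1175 and 1134, near the other cells of Placebo 2 (clusters 23, led by Dcpp1, and 24, led by S-phase genes) and above the 670 to 770 of Progesterone 2 and 3.

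The difference showed in the median cell. With each cell thinned to 5000 UMIs, which left out 38 of the 2825 epithelial-like cells of Placebo 2, 73 of Progesterone 2 and 122 of Progesterone 3, the median cell of Placebo 2 held 5 sterol-branch UMIs. The median cell of Progesterone 2 and of Progesterone 3 held 3, and that of Progesterone 1 held 2. The 90th percentile was 12 UMIs in Placebo 2 and 6 to 7 in the progesterone libraries. For the fatty acid branch the medians were 3, 3 and 3 in batch 2 and 4 in Progesterone 1. Summed markers of adipocytes and of milk-secreting cells, 2 cell types rich in these enzymes, were at or below 1.1 CPM in the epithelial-like cells of every library used.

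In macrophage-like cells no member passed the test over all 5 libraries (0 of 28, with 0.931% of the 12133 genes tested called). An unadjusted p under 0.05 was reached by 12 members and by 1619 of the 12133 genes. The median log2 ratios were -0.71 for the sterol branch and -0.70 for the fatty acid branch, against 0.03 for all genes. Those medians rest on Placebo 2, since without it they were 0.51 and -0.12, and with doublets kept they were -0.34 and -0.26. The sterol sum was 262 CPM in the 16 macrophage-like cells of Placebo 1 and 224 in the 306 of Progesterone 1, and in batch 2 it was 524 in Placebo 2 against 265 and 300 in Progesterone 2 and 3. Placebo 2 alone was high, and Placebo 1 lay within the range of the progesterone libraries. In batch 2 alone, 20 of 28 members were called and all 20 were lower, where 14.1% of 12654 genes were called. Leaving out Placebo 1 gave 19 lower members (12.8% of genes called), leaving out Progesterone 1 gave 20 (16.6%), and leaving out Placebo 2 gave 2 lower, Pmvk and Scd1, and 2 higher, Sqle and Srebf2 (8.6%).

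The class pools 3 clusters that the libraries fill unequally. Of the 676 macrophage-like cells of Placebo 2, 370 lie in a cluster led by Retnla and Ccl6. Of the 1036 of Progesterone 2, 754 lie in one led by Apoe, Ms4a7 and C1q genes, as do 440 of the 645 of Progesterone 3, and 190 of the 306 of Progesterone 1 lie in one that scored highest for monocyte markers. Placebo 2 was the highest library of batch 2 in each. In the Retnla cluster its sterol sum was 628 CPM, against 287 and 395 in Progesterone 2 and 3 and 281 in the 18 cells of Progesterone 1. In the Apoe cluster it was 313 against 252 and 261, with 198 in Progesterone 1. In the monocyte-scoring cluster it was 548 in 82 cells, against 323 and 322, with 230 in Progesterone 1 and 280 in the 14 cells of Placebo 1.

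Single genes of the macrophage-like cells followed the same libraries. Idi1 was at 55.2 CPM in Placebo 2 and at 9.6 to 15.3 in the other 4 libraries. Hmgcs1 was at 64.4 in Placebo 2 and between 14.9 and 29.3 elsewhere. Cyp51 differed in that Placebo 1 was as high as Placebo 2, 50.6 against 50.5, with 23.6, 17.3 and 27.3 in Progesterone 1, 2 and 3, and both placebo libraries lay above all progesterone libraries (log2 ratio -1.12, SE 0.246, adjusted p = 0.0559). The 16 cells of Placebo 1 carried 17 UMIs of Cyp51. Epithelial markers in macrophage-like cells, a measure of RNA carried over from tumour cells, summed to 1302 CPM in Placebo 2, 856 in Progesterone 2 and 773 in Progesterone 3, which is 4.28%, 4.21% and 3.62% of their level in the epithelial-like cells. The same share of the tumour cells' sterol sum would come to 51.2, 28.02 and 24.9 and leave 472, 237 and 275.

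In T cell-like cells the libraries stood in another order. Of the 21 members that passed the filter on low counts none was called, with 1 of 7751 genes called (0.0129%). At an unadjusted p under 0.05 stood 2 members and 806 of the 7751 genes. The sterol sum was 212 CPM in Placebo 1 and 228 in Progesterone 1, and 359 in Placebo 2, 385 in Progesterone 2 and 541 in Progesterone 3, and Placebo 2 was the lowest library of its batch. The fatty acid sum lay between 172 and 193 in all 5 libraries. Batch 1 holds 4167 and 470 T cell-like cells and batch 2 only 129, 46 and 67. Epithelial markers summed to 1266, 2039 and 1383 CPM in the T cell-like cells of batch 2, which corresponds to a carried-over sterol sum of 49.8, 66.7 and 44.6.

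Plasmacytoid dendritic-like cells had the highest sterol sums of the classes tested. It was 1855 CPM in the 48 cells of Placebo 2 and 820, 717 and 783 in the 31, 44 and 41 cells of Progesterone 1, 2 and 3. Of 26 members tested 9 were called and all 9 were lower, where 1.19% of 7417 genes were called lower. As in the tumour cells, the placebo side of this fit is Placebo 2 alone, and treatment and library cannot be told apart. Its 1 residual degree of freedom is again Progesterone 2 against Progesterone 3, with spread borrowed from other genes. Hmgcs1 was at 248 in Placebo 2 and 86.5, 46.3 and 60.4 in the progesterone libraries (log2 ratio -2.13, SE 0.292, adjusted p = 8.8e-11). The other 8 were Idi1, Fdps, Fdft1, Sqle, Cyp51, Msmo1, Insig1 and Elovl6, with log2 ratios from -1.99 to -1.11. Fasn was at 24.4 against 26.6, 26.2 and 16.1 and Srebf2 at 123 against 188, 105 and 98.6, and neither was called. The carried-over sterol sum, scaled from epithelial markers, was 38.6 in Placebo 2 and 10.0, 41.7 and 30.2 in Progesterone 1, 2 and 3, a small part of each total. Without the batch in the model most of these members lost their call. The median log2 ratio was then -1.17 for the sterol branch and -0.32 for the fatty acid branch, against -1.31 and -0.64 with the batch. Placebo 1, with 8 such cells and not in the fit, had a sterol sum of 673, below all 3 progesterone libraries.

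In fibroblast-like cells the sterol sum was 530 CPM in Placebo 2 and 271, 328 and 276 in Progesterone 1, 2 and 3, and the fatty acid sum was 565 against 257, 344 and 353. Here Placebo 2 was above every progesterone library for 21 of 28 members, and the sums of both branches differed by like factors. The share of all genes for which it was above them was not counted. The carried-over sterol sum, scaled from epithelial markers as above, was 93.5 in Placebo 2 and 62.1, 94.2 and 43.5 in Progesterone 1, 2 and 3. Here too Placebo 2 is the only placebo library of the fit. Only Elovl6 passed the test among the 27 members tested, with 2.09% of 12003 genes called, and its Progesterone 1 value of 39.8 was above the 38.7 of Placebo 2. Without Progesterone 1, 6 members were called, all lower (2.62% of genes called), and without the batch none was, nor any other gene.

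B cell-like cells stood apart by their fatty acid branch. Its sum was 857 CPM in Placebo 1, 613 in Placebo 2, 463 in Progesterone 1 and 820 in Progesterone 2, while the sterol sum was 202, 343, 174 and 291 in the same libraries. The placebo and progesterone libraries overlapped in both sums. None of the 18 members tested was called in B cell-like cells (0.481% of genes called), with 2 members and 593 of 7491 genes at an unadjusted p under 0.05. In conventional dendritic-like cells the sterol sum was 308 and 795 in Placebo 1 and 2 and 624 and 570 in Progesterone 1 and 2, from 10 to 17 cells a library. None of the 4 members that could be tested there was called (0.126% of genes called), with 1 member and 134 of 2376 genes at an unadjusted p under 0.05.

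**Figure D4:**
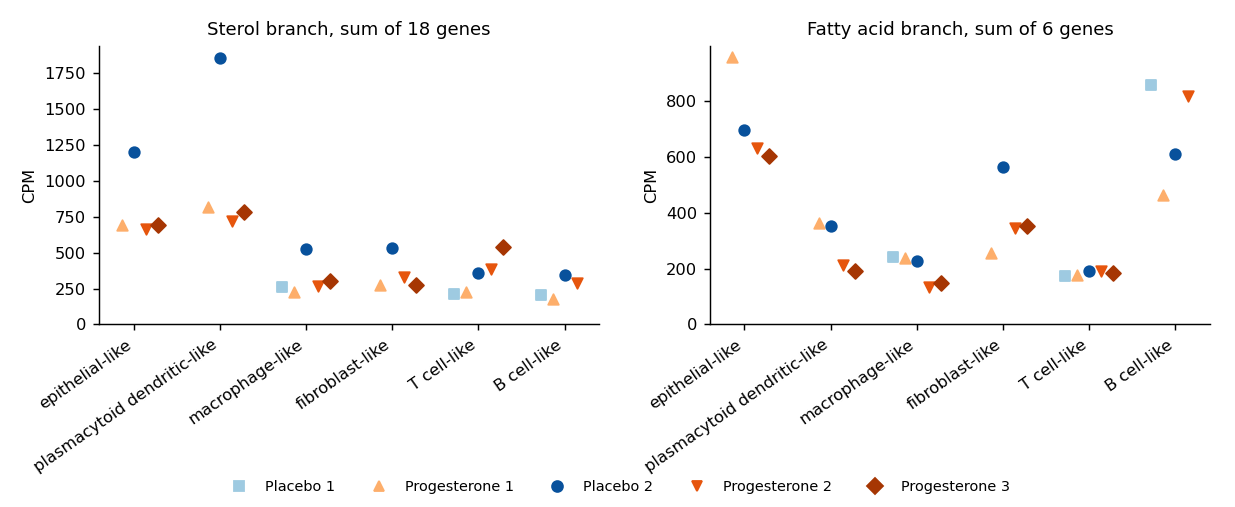
Summed sterol branch (left) and fatty acid branch (right), in CPM of each class, with 1 point per library of at least 10 cells in the class. On the left Placebo 2 lies above all progesterone libraries in 5 of the 6 classes, and in T cell-like cells it lies below Progesterone 2 and 3.

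Whether the change differed between tumour cells and macrophage-like cells was tested directly, as an interaction within the 4 libraries that hold both. No member was called (0 of 28), and 24 of 14600 genes were (0.164%). Without Progesterone 1 the same test called 16 members, 7 with the more negative change in the tumour cells and 9 with the more negative change in the macrophage-like cells, where 22.8% of all genes were called. Idi1 had the smallest p among the members over all 4 libraries (log2 difference 1.35, SE 0.338, adjusted p = 0.237). Fitted class by class in these 4 libraries, its ratio was -0.84 in tumour cells and -2.13 in macrophage-like cells. The comparisons within each class share their libraries, and their likeness is not a separate result.

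The tumour cells carried more RNA of most of these enzymes than the macrophage-like cells of the same libraries. Of 28 members 18 were higher in epithelial-like cells and 1 was lower, where 36.2% of 13855 genes were called higher and 32.2% lower. Sqle stood at 294, 170, 143 and 156 CPM in the tumour cells of Placebo 2 and Progesterone 1, 2 and 3, and at 39.8, 14.0, 12.8 and 12.4 in the macrophage-like cells (log2 ratio 3.02, SE 0.159, adjusted p = 1.96e-05). Scd1 and Fasn were also far higher (log2 ratios 3.31, SE 0.397, and 2.51, SE 0.204), and so was Scd2 (2.39, SE 0.151). In each of these genes the lowest tumour value lay above the highest macrophage-like value of these libraries.

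Insig1 was the exception in the main fit. Its level was 56.3, 48.3, 32.2 and 41.4 CPM in the macrophage-like cells of Placebo 2 and Progesterone 1, 2 and 3, and 11.8, 11.3, 5.8 and 6.3 in the tumour cells (log2 ratio -2.77, SE 0.168, adjusted p = 3.33e-05). Cyp51, Acly, Mvd, Acat2, Srebf2, Dhcr7, Stard4, Pmvk and Ebp, the other 9, were not called, and Cyp51 had a log2 ratio of -0.04 (SE 0.146). In several alternatives, among them both that used DESeq2, Ebp was also called lower in the tumour cells. Stard4 was called lower with the DESeq2 Wald test and Pmvk without Progesterone 1, while Srebf2 was called higher with doublets kept. The fatty acid branch was further above the macrophage-like cells than the sterol branch, with median log2 ratios of 1.68 and 0.75 and 0.11 over all genes. Of the 19 called members, 15 of the higher ones and Insig1 were called under all 11 settings tried.

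**Figure D5:**
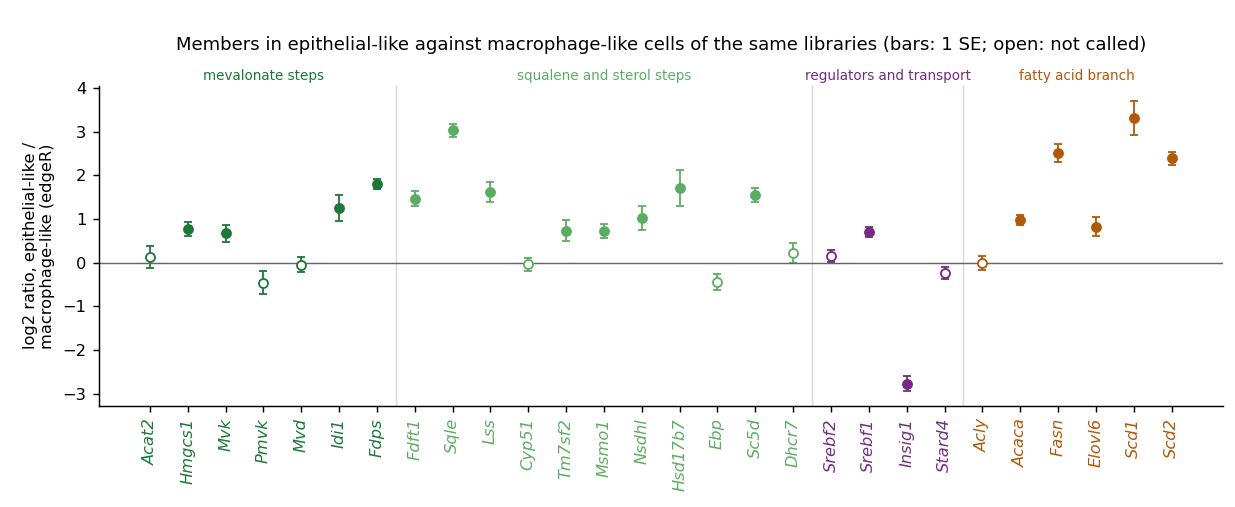
Log2 ratio of epithelial-like to macrophage-like cells within the same 4 libraries for each of the 28 genes, from edgeR with the library in the model, with bars of 1 SE. Filled points passed an adjusted p of 0.05, with Scd1 (3.31) and Sqle (3.02) at the top and Insig1 (-2.77) at the bottom.

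Other genes of sterol synthesis, sensing and uptake moved with the members in the tumour cells. Of 14, 10 were lower and 1 was higher, with a median log2 ratio of -0.41. Tmem97, a sterol-responsive membrane protein, fell from 61.1 CPM in Placebo 2 to 18.6, 26.5 and 23.5 in Progesterone 1, 2 and 3 (log2 ratio -1.44), and Erg28 fell by 0.85 on the log2 scale. Ggps1, which draws farnesyl diphosphate away into geranylgeranyl diphosphate, was the higher one, with 28.4 in Placebo 2 and 39.1, 42.9 and 47.5 (log2 ratio 0.51).

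Genes on the other sides of the balance were mixed. Of all genes in this comparison, 25.8% were called lower and 25.0% higher. Among 10 genes of sterol efflux, esters and the LXR receptors 4 were lower, with Nceh1, an ester hydrolase, at a log2 ratio of -1.45, and Abca1, the cholesterol exporter, was the 1 that was higher (log2 ratio 1.33), though at 0.461 CPM in Placebo 2 and 1.29 to 2.92 in the progesterone libraries. Of 19 other genes of fatty acid and glyceride synthesis 10 were lower and 5 higher. Me1, the malic enzyme that supplies NADPH, fell from 290 to 220, 131 and 133 (log2 ratio -1.29), and Acsl4, a fatty acid-activating enzyme, from 203 to 92.0, 90.05 and 85.7 (log2 ratio -1.36). Gpam, the acyltransferase that starts glyceride synthesis, was higher, with 14.1 in Placebo 2 and 34.7, 28.3 and 29.0 (log2 ratio 0.87). Of 14 genes of fatty acid uptake and oxidation 6 were lower and 4 higher. Fabp4 and Cd36, with log2 ratios of -4.07 and -3.15, are known from endothelial and fat cells and were at 2.25 and 0.603 CPM in Placebo 2, where 8 endothelial markers summed to 62.9 CPM in the epithelial-like cells against 14.4 to 15.5 in the progesterone libraries. The part of those cells in the 2 values was not tested.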

How the data were processed

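Libraries were 10x Genomics 3′ single-cell libraries of dissociated tumours. The deposited matrices hold raw UMI counts per gene and barcode; Cell Ranger version 7.0.0 and the mm10 build are named per the submitters' processing notes, while the matrices name version 8.0.1 per the file headers. Barcodes with fewer than 250 genes and doublets called by Scrublet (0.8% expected per 1000 cells) were left out. Cells were clustered in scanpy 1.11.5 (2000 variable genes without the pathway genes, 30 components, 20 neighbours, Leiden resolution 1). Clusters were named, as "-like" classes, by a marker score of at least 0.5. Clusters short of that, or with fewer than 3 markers of the class detected in at least a 0.1 share of cells, stayed unnamed. These held 224 to 1350 cells a library. Further rules, on depth and on competing classes, set no cluster aside. The names may differ from the study's.

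Counts were summed per library and class (at least 10 cells) and tested with edgeR 4.0.16 (quasi-likelihood, TMM, prior count 2), with the batch of the sample titles as a block, and p-values adjusted by Benjamini-Hochberg over all genes tested. No fit could be made for endothelial-like, neutrophil-like and NK-like cells. CPM levels were computed before TMM scaling. The pairing of libraries by batch comes from the titles. Deviations of placebo and progesterone libraries from their group means correlated at 0.21 to 0.61 within a batch, over genes of macrophage-like and T cell-like cells. With 2 placebo libraries their deviations mirror each other, so these values are not separate checks of the pairing. The pairing was not examined in the epithelial-like cells. The procedure was tested on simulated counts. Members and gene lists were chosen with earlier results of these data known. All 28 members are named or counted; of other pathway genes, up to 3 per list and direction with the largest log2 ratio were eligible to be named. Alternatives covered scaling, DESeq2 1.42.0, filters, depth, doublets, clustering, batch and left-out libraries. Intervals cover counting error only. The unit of every test is the library. Some genes of the other pathway lists are not reported by name here.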

Additional observations from a re-analysis of the deposited data

How the results depend on the processing

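In the epithelial-like cells the alternatives of scaling, filter, thinning, doublets, clustering or cell depth called the same members as the main fit. So did the fit without Progesterone 1, and the DESeq2 Wald test kept most of those calls. The median sterol-branch log2 ratio ran from -0.82 to -0.80 over these alternatives. With no replicate block, that is without the batch pairing, 14 were called, and with no replicate block and without Progesterone 2 or Progesterone 3 in turn, 6 and 5. Counting the unnamed clusters whose best marker score was epithelial gave 8. That setting brings shallow Placebo 1 cells into the fit, and there the log2 ratio of Srebf2 was 0.089. In all these fits 24 to 27 of the 28 log2 ratios lay below 0. With the block, the fits without Progesterone 2 or 3 (no residual degree of freedom) and without Placebo 2 (no placebo library) were not run, nor was the interaction without Placebo 2.

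In macrophage-like cells, against 0 calls, DESeq2's size factors gave 1, no filter 9, thinning 2, keeping the pathway genes among the variable genes 3, at least 20 cells in a library 19 and batch 2 alone 20. Leaving out each library in turn gave 0 to 20. With a library left out, the log2 ratio ran from -1.61 to 5.72 for Sqle and from -0.76 to 1.48 for Srebf2, with the positive ends without Placebo 2, where the lone placebo library, Placebo 1, holds 0 UMIs of Sqle. In T cell-like cells no filter gave 1 call (Sc5d, higher), where 320 of 17870 genes were called, and the other alternatives gave none. The interaction gave 0 to 16 with a library left out. The class contrast gave 16 to 21, with 16 without Progesterone 2 (7306 of 13339 genes called) and 21 without Progesterone 1 (9968 of 15913). In fibroblast-like cells, against 1 call, 6 were made without Progesterone 1 and 0 with no replicate block, also without Progesterone 2 or 3. In plasmacytoid dendritic-like cells most calls of the main fit were lost with no replicate block, and all of them when Progesterone 2 or 3 was also left out. The median sterol-branch log2 ratio was -1.17 with no replicate block. It was -1.10 when Progesterone 2 was also left out and -0.99 when Progesterone 3 was. The alternatives for these 2 classes, batch 2 alone, the depth of 20000 UMIs and the joint settings were chosen after seeing the data. The cause of these shifts was not tested, beyond the fewer libraries in each fit. Depth limits the classes of under 100 cells.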
